A study of Mus musculus with 8 samples.

Results

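The 46 genes described here encode plasma proteins of complement and coagulation, chosen by gene symbol from the 25124 gene rows of a mouse liver expression table. They comprise 23 complement genes, 20 coagulation genes and 3 genes for other plasma proteins that liver secretes beside them (Apoh, Fetub and Ahsg). The rule uses gene symbols and no threshold on a measured value, although the list was drawn up with earlier results of these data known. Each symbol had its own row.

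Complement is a cascade of plasma proteins in which C1q, mannose-binding lectins or spontaneous turnover of C3 lead to cleavage of C3, and the terminal components then assemble into a pore in the target membrane. Coagulation is a cascade of serine proteases and cofactors that ends with thrombin turning fibrinogen into fibrin, held in check by antithrombin, protein C and the plasmin system. Most of these proteins are made by hepatocytes, whereas C1q and properdin come largely from macrophages. C3, kininogen and fibrinogen genes have been linked to FXR (encoded by Nr1h4), the nuclear receptor for bile acids.

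The samples were livers of C57BL/6 mice that were fasted overnight and given vehicle or 30 mg/kg GW4064, a synthetic FXR agonist, and studied at 1 h. RNA-seq had 2 libraries per treatment, each from RNA of 2 pooled mice. GRO-seq, which sequences the RNA that polymerases extend in isolated nuclei, had 1 library for each combination of genotype (WT or FXR KO in the labels) and treatment. The methods describe the genotypes as Fxr-Flox and Fxr-LKO, the latter with Cre driven by the hepatocyte promoter of Albumin, so that other liver cells keep the gene. The vehicle is named DMSO in the labels and corn oil in the methods.

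Levels are in RPKM, reads scaled to the length of the gene row and the depth of the library, and rows include introns. Library totals rebuilt from the values were 13924468 to 14047222 reads in RNA-seq. In GRO-seq they were 14173724 and 10593322 reads in the WT vehicle and GW4064 libraries, and 5141667 and 5069394 reads in the corresponding libraries labelled FXR KO. Nr1h4 itself was at 15.1 and 4.23 RPKM in the WT vehicle and GW4064 GRO-seq libraries and at 16.7 and 20.6 RPKM in those labelled FXR KO, so its row was not lower there, and since a row over the whole gene also holds what lies outside a deleted part, it does not check the label. Abcb11, the bile salt export pump and an FXR target, went from 4.61 to 56.0 RPKM with GW4064 in WT and from 1.20 to 1.58 RPKM in the libraries labelled FXR KO. Nr0b2, the FXR target that encodes SHP, was far lower in the libraries labelled FXR KO but was higher with GW4064 in both genotypes, at 3.65 and 36.6 RPKM in WT (log2 ratio 3.33, counting interval 3.10 to 3.57) and at 0.118 and 1.19 RPKM in the libraries labelled FXR KO (3.34, interval 1.30 to 6.48, from 2 and 20 reads). Hepatocyte markers were abundant in all libraries, with a summed level of 401 to 459 RPKM in the 4 RNA-seq libraries.

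All 46 members passed the filter of a mean of at least 0.5 RPKM in RNA-seq, and 45 passed the same filter in GRO-seq. Cfd passed in RNA-seq only through its second GW4064 library, with 9 and 6 reads with vehicle and 7 and 30 with GW4064. It is kept in the RNA-seq counts and median of complement. In vehicle-treated livers complement levels ran from 0.297 RPKM for Cfd to 36.6 RPKM for Cfb, with a median of 7.26 RPKM. Coagulation levels ran from 2.35 RPKM for Pros1 to 48.9 RPKM for Fgb, with a median of 10.4 RPKM. The median over all 11408 tested genes was 2.10 RPKM, so most members lay above it. Ahsg, which encodes the mineral-binding carrier fetuin-A, had the highest level of the members at 57.9 RPKM. Since rows include introns, these levels also depend on row length and do not rank the genes by amount of RNA.

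**Figure D1:**
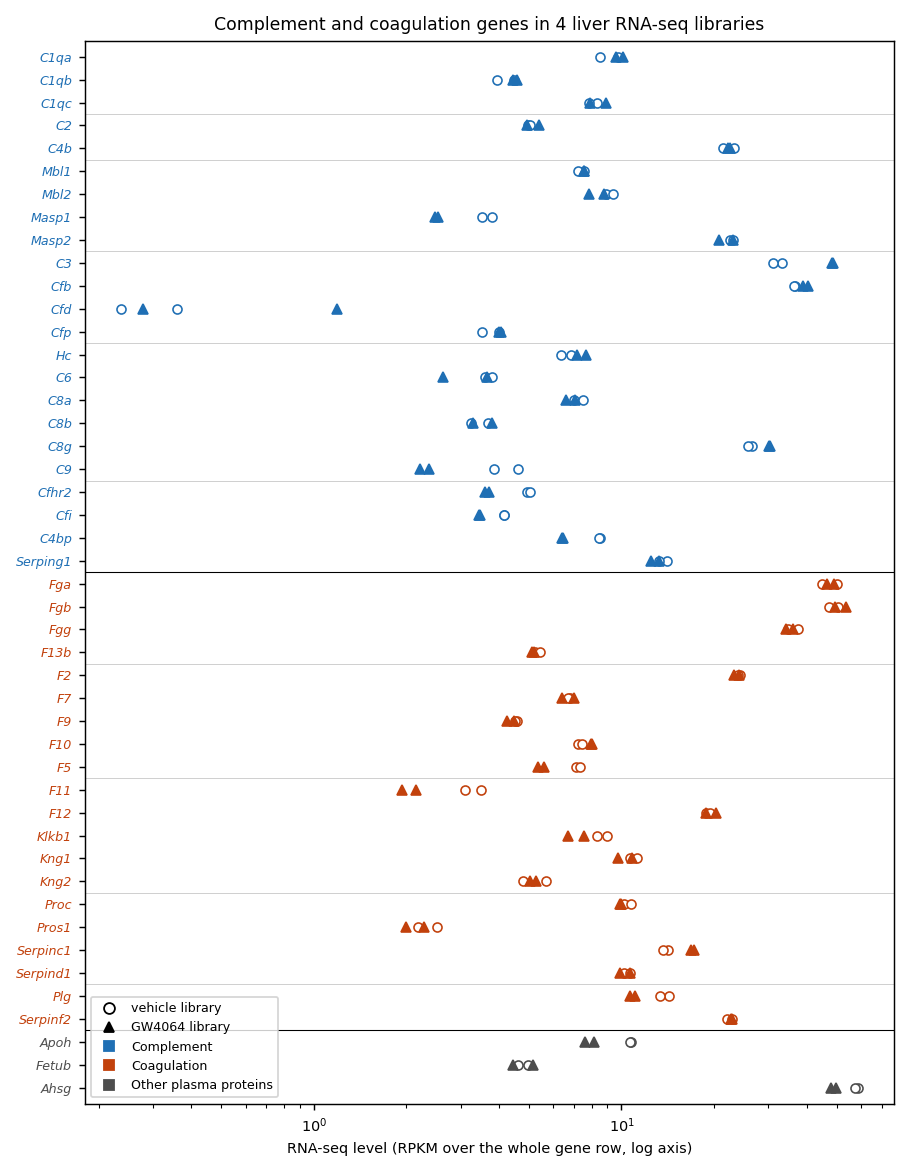
RNA-seq level of each of the 46 members in RPKM (log axis), with open circles for the 2 vehicle libraries and filled triangles for the 2 GW4064 libraries, ordered by role (grey lines) and coloured by group. The triangles of C3 lie to the right of its circles (48.5 and 48.7 against 31.0 and 33.2 RPKM), those of Masp1, C9 and Cfhr2 lie to the left, and the symbols of the fibrinogen genes overlap.

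To ask which members responded within 1 h, GW4064 and vehicle RNA-seq libraries were compared with limma on log2(RPKM + 0.1), with p-values adjusted over all 11408 genes. C3, the component on which all complement pathways converge, rose. The lectin pathway protease gene Masp1, the factor H-related gene Cfhr2 and the terminal component gene C9 fell. Thus 1 member passed an adjusted p of 0.05 in the upward direction, where 2.13% of all tested genes did so, and 3 members passed it in the downward direction, where 1.15% of all tested genes did so. All 4 were complement genes, and none of the 20 coagulation genes passed. An unadjusted p under 0.05 was found for 5 of the 20, near the background share of 21.2% of all tested genes. It was found for 7 of the 23 complement genes and 2 of the 3 other plasma protein genes. The median log2 change was 0.03 for complement, -0.03 for coagulation and -0.25 for the 3 other plasma proteins, beside 0.00 for all tested genes.

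The calls depended on all 4 libraries: leaving out any 1 leaves 1 library in a group, which weakens the test for every gene. The log2 changes then ran from 0.55 to 0.65 for C3 and from -0.58 to -0.48 for Masp1. They ran from -0.46 to -0.42 for Cfhr2 and from -0.99 to -0.73 for C9. With limma-voom on the rebuilt reads, 2 members rose (C3 and Serpinc1) and 9 fell (C9, Masp1, Cfhr2, C4bp, Cfi, F11, F5, Plg and Apoh), where 4.58% and 4.22% of all tested genes were called. On rows of at least 300 bases, a setting chosen after seeing the data, 1 member rose and 8 fell, beside 3.92% and 2.86% of the genes. Both GW4064 values lay above both vehicle values for 6 members and below them for 16 members, and the shares of all tested genes were 26.0% and 28.1%. In bulk liver, less RNA per cell and fewer cells of a type cannot be told apart. Of 41 markers of hepatocytes, Kupffer cells, endothelium, stellate cells, cholangiocytes, blood cells and platelets, 33 passed the filter on low values and none of the 33 passed the limma test. Of the 33, 4 had an unadjusted p under 0.05, and limma-voom called Ttr, a hepatocyte gene for a thyroid hormone carrier, at 29.6 and 29.6 RPKM with vehicle and 19.8 and 21.9 RPKM with GW4064.

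**Figure D2:**
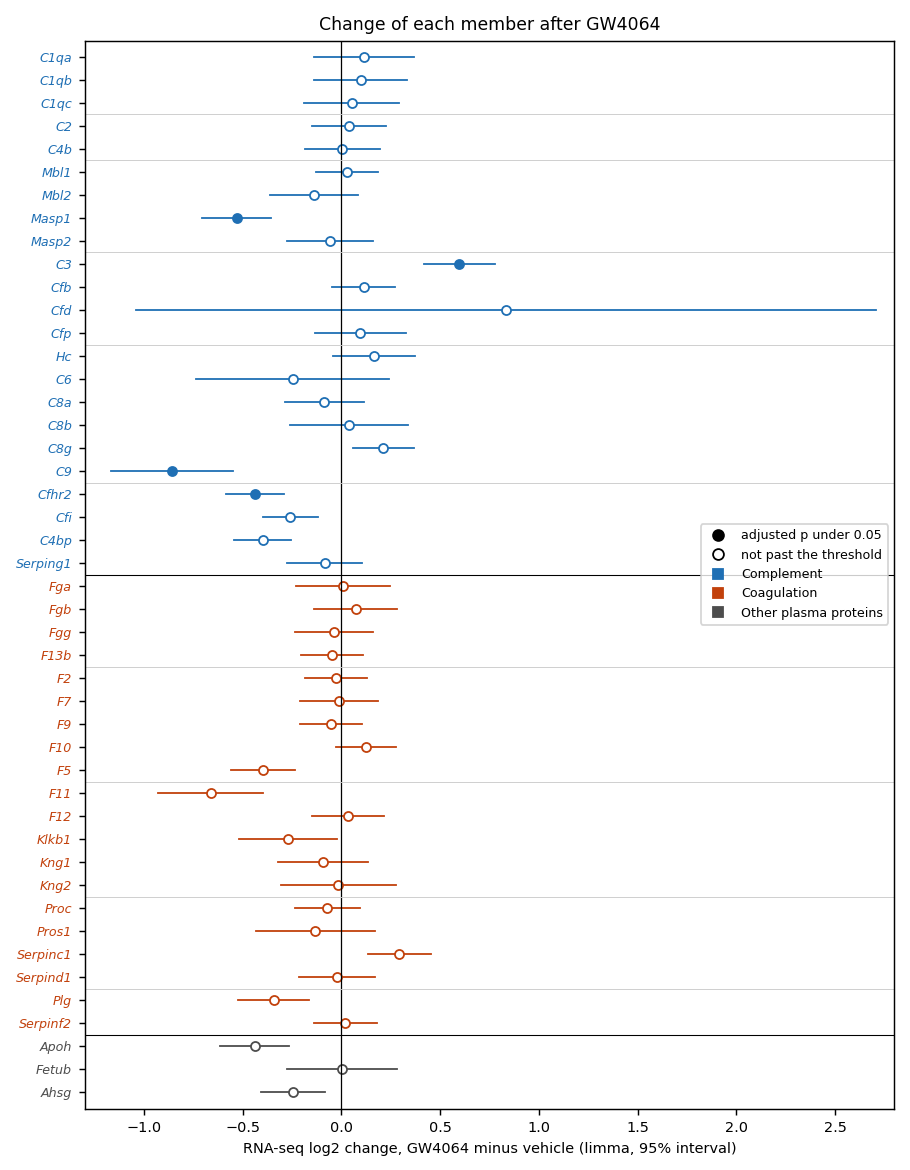
RNA-seq log2 change of each member, GW4064 minus vehicle, from limma with its 95% interval, where filled points passed an adjusted p of 0.05. C3 (0.60) is the filled point on the right, C9 (-0.86), Masp1 (-0.53) and Cfhr2 (-0.44) are those on the left, and the wide interval belongs to Cfd, which was low in 3 of the 4 libraries.

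GRO-seq gave 1 library per condition, so its ratios have no test. The intervals beside them are exact 95% intervals for counting error only. In WT livers the median log2 ratio of GW4064 over vehicle was 0.04 for complement and -0.11 for coagulation genes, beside -0.10 for all genes. No member was past 2-fold higher, as 2.68% of all genes were, and 3 members were past 2-fold lower (C9, C6 and Klkb1), as 1.69% of all genes were. In the libraries labelled FXR KO no member was past 2-fold in either direction, where 0.762% of genes were higher and 0.533% lower. The medians there were 0.01 for complement, -0.22 for coagulation and -0.03 for all genes.

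**Figure D3:**
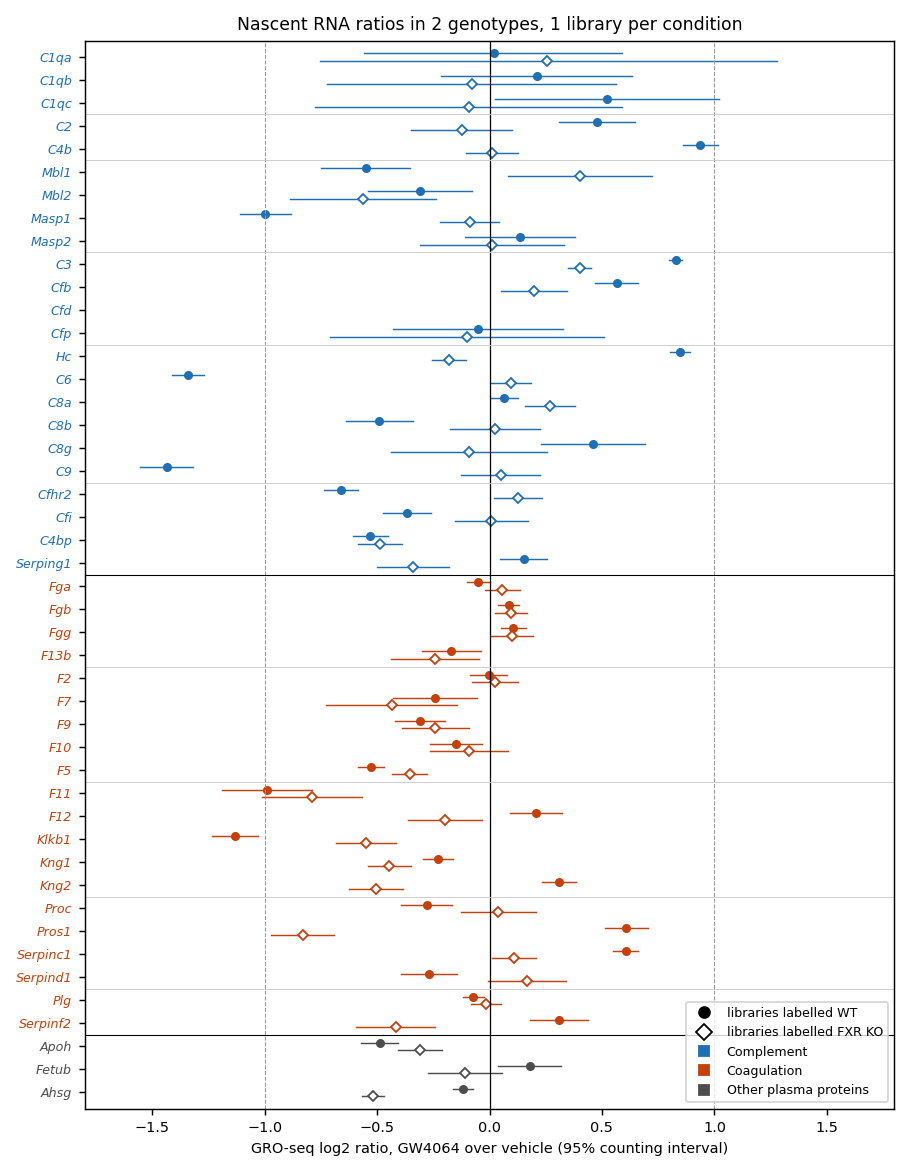
GRO-seq log2 ratio of GW4064 over vehicle for 45 members with 95% counting intervals, with filled circles for the libraries labelled WT and open diamonds for those labelled FXR KO (dashed lines mark 2-fold). C9 (-1.43), C6 (-1.34) and Klkb1 (-1.13) lie past the left dashed line in WT and at 0.05, 0.10 and -0.55 in the libraries labelled FXR KO, whereas the circle and diamond of each fibrinogen gene lie close to 0.

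The central and alternative pathway was led by C3. C3 was at 33.2 and 31.0 RPKM in the vehicle libraries and at 48.7 and 48.5 RPKM in the GW4064 libraries. The GW4064 values were higher and the groups did not overlap. The log2 fold change was 0.60 (n = 2 libraries each, limma SE 0.06, adjusted p = 0.0365), where SE is the standard error, a 1.51-fold rise with a 95% interval of 1.34 to 1.71, and over 17 settings it stayed between 0.47 and 0.65 with an adjusted p of 0.00843 to 0.226. In GRO-seq, C3 went from 46.2 to 82.0 RPKM in WT (log2 ratio 0.83, interval 0.80 to 0.86) and from 42.2 to 55.7 RPKM in the libraries labelled FXR KO (0.40, interval 0.35 to 0.45). The ratio was thus positive in both genotypes and larger in WT, a difference that was not tested for want of replicates.

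The other genes of the alternative pathway did not pass the test. Cfb, the protease of the alternative C3 convertase, was at 36.8 and 36.5 RPKM with vehicle and at 40.4 and 38.9 RPKM with GW4064, a log2 change of 0.11 (adjusted p = 0.355 from limma) that became -0.03 under quantile normalization. Cfp, which encodes properdin, a stabiliser of that convertase, had a log2 change of 0.09 (adjusted p = 0.565 from limma). In GRO-seq, Cfb had a log2 ratio of 0.56 in WT and 0.20 in the libraries labelled FXR KO, and Cfp had ratios of -0.05 and -0.10 with intervals that included 0.

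Cfd, factor D, which cleaves factor B and is made mainly in fat, was at 0.358 and 0.237 RPKM with vehicle and at 0.279 and 1.19 RPKM with GW4064. Only the second GW4064 library was high, and without it the log2 change went from 0.83 to -0.05. Adipocyte markers summed to at most 0.038 RPKM in any RNA-seq library. The Cfd row also lies wholly under the Bc1 row on the opposite strand, so its reads are uncertain.

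Upstream sequences are shown for the 3 members that passed the test in RNA-seq and had a promoter window, and Masp1 had none. They are the 250 bases before the RefSeq start on GRCm38 (mm10), read on the strand of the gene: C3 from chr17:57228137-57228386 on the minus strand, C9 from chr15:6445096-6445345 on the plus strand and Cfhr2 from chr1:139858700-139858949 on the minus strand. Capitals mark matches to AGGTCA, the core site of many nuclear receptors, to TTGCGCAA with at most 1 mismatch, the palindrome of C/EBP factors, to GTTAAT, a core of HNF1 sites, or to a direct repeat of AGGTCA with 1 base between, allowing 2 mismatches.
C3: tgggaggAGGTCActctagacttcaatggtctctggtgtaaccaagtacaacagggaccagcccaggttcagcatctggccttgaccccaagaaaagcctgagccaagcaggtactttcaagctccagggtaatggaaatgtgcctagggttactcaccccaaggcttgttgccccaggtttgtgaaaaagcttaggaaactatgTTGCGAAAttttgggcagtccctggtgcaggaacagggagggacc
C9: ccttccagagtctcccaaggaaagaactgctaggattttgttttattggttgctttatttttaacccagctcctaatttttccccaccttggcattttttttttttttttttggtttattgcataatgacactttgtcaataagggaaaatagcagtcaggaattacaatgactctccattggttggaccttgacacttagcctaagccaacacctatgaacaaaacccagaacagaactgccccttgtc
Cfhr2: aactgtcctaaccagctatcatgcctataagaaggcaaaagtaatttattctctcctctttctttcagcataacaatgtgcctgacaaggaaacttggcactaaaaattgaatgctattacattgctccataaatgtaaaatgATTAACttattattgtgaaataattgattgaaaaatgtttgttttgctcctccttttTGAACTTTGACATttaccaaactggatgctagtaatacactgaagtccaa

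The C3 sequence holds AGGTCA far from the start and a C/EBP-like match near it, the Cfhr2 sequence holds matches to GTTAAT and to the direct repeat on its other strand, and the C9 sequence holds none of the motifs. Windows of 300 bases, with 50 bases after the start included, were found for 36 of the 46 members, and Masp1 and Kng1 were not among them. On either strand, AGGTCA was in 44.4% of the members' windows and in 16.3% of all 32851 windows. GTTAAT was in 27.8% and 7.1%, and TTGCGCAA with at most 1 mismatch was in 25.0% and 5.9%. AGGTCA is also part of the direct repeat, which with at most 2 mismatches was in 8.3% and 3.9%. No member's window held the inverted repeat of AGGTCA with 1 base between at the same tolerance, the usual FXR site, and 1.1% of all windows did. The comparison windows were not limited to genes expressed in liver, so these shares do not show what is particular to complement and coagulation genes. These are letter matches and not binding measurements.

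In the lectin pathway, which starts when sugar-binding proteins settle on microbial surfaces, Masp1 fell. Masp1 encodes a protease that activates the pathway, and also MAP44 and MASP-3 by splicing, which the row does not separate. It was at 3.53 and 3.80 RPKM with vehicle and at 2.47 and 2.54 RPKM with GW4064, without overlap. The log2 fold change was -0.53 (limma SE 0.06, adjusted p = 0.0429), with an adjusted p of 0.00679 to 0.206 over 17 settings. GRO-seq values were 3.08 and 1.54 RPKM in WT (a ratio of 0.501, log2 interval -1.11 to -0.88) and 3.66 and 3.45 RPKM in the libraries labelled FXR KO (-0.09, interval -0.22 to 0.04). Under GW4064 Masp1 was thus higher in the library labelled FXR KO than in WT, by 1.16 on the log2 scale (interval 1.02 to 1.29).

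The remaining lectin pathway genes did not pass. The mannose-binding lectin genes had log2 changes of 0.03 (Mbl1, adjusted p = 0.807) and -0.14 (Mbl2, adjusted p = 0.405) from limma. Masp2, the protease that cleaves C4 and C2, had a change of -0.06 (adjusted p = 0.717 from limma) over a row of 1869 bases. In GRO-seq the WT ratios were -0.55 for Mbl1, -0.31 for Mbl2 and 0.14 for Masp2. In the libraries labelled FXR KO, Mbl1 was at 0.40 and Mbl2 at -0.56, so Mbl1 differed in sign between the genotypes.

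Among the 6 terminal pathway genes the values spread widely. C9, which polymerises to form the wall of the membrane attack pore, was at 3.85 and 4.62 RPKM with vehicle and at 2.36 and 2.21 RPKM with GW4064, without overlap. Its log2 fold change of -0.86 (limma SE 0.11, adjusted p = 0.0490) was the lowest of the 46 members, and the adjusted p ran from 0.00613 to 0.213 over 17 settings. The C9 ratio in GRO-seq was also the lowest of the members in WT, with 3.55 and 1.31 RPKM (log2 ratio -1.43, interval -1.55 to -1.32). In the libraries labelled FXR KO it was at 1.93 and 2.00 RPKM (0.05, interval -0.13 to 0.23). The level with vehicle was also lower there than in WT, by -0.88 on the log2 scale.

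C6, which joins the complex before C9, had the next lowest WT ratio. It went from 6.64 to 2.62 RPKM in WT (log2 ratio -1.34, interval -1.41 to -1.27) and from 5.18 to 5.54 RPKM in the libraries labelled FXR KO (0.10, interval 0.01 to 0.18). In RNA-seq it was at 3.60 and 3.79 RPKM with vehicle and at 2.63 and 3.65 RPKM with GW4064. Only the first GW4064 library was clearly lower, and the log2 change of -0.25 (limma SE 0.17, adjusted p = 0.492) did not pass.

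Hc, which encodes C5, had values on the other side. It was at 6.35 and 6.88 RPKM with vehicle and at 7.19 and 7.68 RPKM with GW4064 (log2 change 0.17, adjusted p = 0.309 from limma). In GRO-seq it went from 6.39 to 11.5 RPKM in WT (0.85, interval 0.80 to 0.89) and from 7.84 to 6.93 RPKM in the libraries labelled FXR KO (-0.18, interval -0.25 to -0.10). C8 is built from the products of 3 genes, none of which passed. C8g, the lipocalin chain, had a log2 change of 0.21 (adjusted p = 0.156 from limma), while C8a was at -0.09 and C8b at 0.04. Their WT GRO-seq ratios were 0.46 for C8g, 0.07 for C8a and -0.49 for C8b, although C8a and C8b are neighbours, 11132 bases apart on opposite strands.

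All 4 regulators of complement had negative RNA-seq changes, with a median of -0.33, and 1 passed. Cfhr2, a relative of factor H, was at 4.94 and 5.03 RPKM with vehicle and at 3.70 and 3.61 RPKM with GW4064, without overlap. The log2 fold change was -0.44 (limma SE 0.05, adjusted p = 0.0431), with an adjusted p of 0.00843 to 0.229 over 17 settings. In GRO-seq it had a ratio of -0.66 in WT and 0.12 in the libraries labelled FXR KO. Its row shares sequence with other genes of the factor H family, so reads could have been split among them.

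C4bp, the binding protein that speeds the decay of the C4b-containing convertase, was at 8.51 and 8.47 RPKM with vehicle and at 6.45 and 6.39 RPKM with GW4064. These groups did not overlap, yet the log2 change of -0.40 (limma SE 0.05, adjusted p = 0.0503) missed the threshold narrowly. Cfi, the protease that inactivates C3b and C4b, had a change of -0.26 (adjusted p = 0.0994 from limma), and Serping1, the C1 inhibitor, of -0.09 (adjusted p = 0.531 from limma). The genotypes gave different pictures for these genes in GRO-seq. C4bp had about the same ratio in WT and in the libraries labelled FXR KO (-0.53 and -0.49), Cfi had -0.37 and 0.01, and Serping1 had 0.15 and -0.34.

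The classical pathway showed no change that passed the test in RNA-seq. Its recognition molecule is C1q, a product of macrophages, and the 3 genes C1qa, C1qb and C1qc, which lie next to each other on chromosome 4, had log2 changes of 0.11, 0.10 and 0.05 (adjusted p = 0.534, 0.563 and 0.774 from limma). Kupffer cell markers summed to 15.5 to 16.7 RPKM with vehicle and to 16 to 16.4 RPKM with GW4064, and none of the 5 of these 7 markers that passed the filter was called. C2 and C4b, the parts of the classical convertase, had log2 changes of 0.04 and 0.01 (adjusted p = 0.778 and 0.980 from limma).

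C4b was at 23.2 and 21.4 RPKM with vehicle and at 22.6 and 22.2 RPKM with GW4064 in RNA-seq, where the values overlapped. In GRO-seq it went from 10.5 to 20.1 RPKM in WT (log2 ratio 0.94, interval 0.86 to 1.01), the highest ratio of the 45 members, and from 15.8 to 15.9 RPKM in the libraries labelled FXR KO (0.01, interval -0.10 to 0.13). C4b has the near-identical copy C4a, which is not a member, and reads could have been split between them. C4a went from 1.76 to 7.95 RPKM in WT and from 0.758 to 0.714 RPKM in the libraries labelled FXR KO, so the ratio of the more abundant C4b row is uncertain. C2 had ratios of 0.48 and -0.12 and lies 88 bases from Cfb on the same strand.

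Fibrinogen, the clot-forming protein, is built from the products of Fga, Fgb and Fgg, and none of them passed the test. Fga was at 50.3 and 44.7 RPKM with vehicle and at 46.4 and 49.1 RPKM with GW4064. Fgb was at 50.5 and 47.4 RPKM and at 49.4 and 53.6 RPKM. Fgg was at 37.5 and 34.8 RPKM and at 34.2 and 36.1 RPKM. The groups overlapped for all 3 genes. The log2 changes were 0.01 (95% interval -0.23 to 0.25, adjusted p = 0.967) for Fga, 0.07 (-0.14 to 0.28, adjusted p = 0.631) for Fgb and -0.04 (-0.24 to 0.16, adjusted p = 0.803) for Fgg from limma. F13b, a carrier subunit of the fibrin crosslinking enzyme, was at -0.05 (adjusted p = 0.671 from limma).

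In GRO-seq the fibrinogen genes were among the densest rows, at 60.4 to 83.2 RPKM in WT with vehicle, and their ratios stayed near 0 in both genotypes. The WT ratios were -0.05 for Fga, 0.08 for Fgb and 0.11 for Fgg, with intervals of -0.10 to 0.00, 0.04 to 0.13 and 0.05 to 0.16. The libraries labelled FXR KO gave 0.06, 0.10 and 0.10. Relative to WT with vehicle, the library labelled FXR KO had log2 ratios of -0.07 for Fga, -0.03 for Fgb and -0.33 for Fgg, and Fgg was again at -0.33 with GW4064.

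The vitamin K-dependent factor genes F2, F7, F9 and F10 and the cofactor gene F5 centred on a median log2 change of -0.03. F2, the thrombin precursor, was at 24.3 and 24.0 RPKM with vehicle and at 23.3 and 24.1 RPKM with GW4064, with a change of -0.03 (95% interval -0.18 to 0.13, adjusted p = 0.838 from limma). The other vitamin K-dependent factors had changes of -0.01 (F7), -0.05 (F9) and 0.12 (F10), none of which passed. F5, the cofactor of factor Xa, stood apart, at 7.13 and 7.35 RPKM with vehicle and at 5.35 and 5.60 RPKM with GW4064. The GW4064 values were lower without overlap, but the log2 change of -0.40 (limma SE 0.06, adjusted p = 0.0614) did not pass. Its nascent RNA had ratios of -0.53 in WT and -0.35 in the libraries labelled FXR KO.

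The contact system starts coagulation on charged surfaces and releases bradykinin. F11, factor XI, had the lowest change of the coagulation genes. It was at 3.09 and 3.49 RPKM with vehicle and at 2.16 and 1.93 RPKM with GW4064, without overlap, a log2 change of -0.66 (limma SE 0.09, adjusted p = 0.0601). In GRO-seq F11 went from 2.55 to 1.29 RPKM in WT (-0.99, interval -1.19 to -0.79) and from 4.26 to 2.47 RPKM in the libraries labelled FXR KO (-0.79, interval -1.01 to -0.57). The counting intervals of the genotypes overlapped.

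Klkb1, plasma prekallikrein, lies 4657 bases from F11 on the same strand and is related to it in sequence. It was at 8.31 and 8.95 RPKM with vehicle and at 6.72 and 7.58 RPKM with GW4064 (log2 change -0.27, adjusted p = 0.213 from limma). Its GRO-seq ratio was -1.13 (interval -1.24 to -1.03) in WT and -0.55 (interval -0.68 to -0.42) in the libraries labelled FXR KO. Both neighbours thus had negative ratios in both genotypes. F12, which starts the contact reaction, was at 0.03 in RNA-seq (adjusted p = 0.819 from limma).

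Kng1, a kininogen gene whose product is the bradykinin precursor, did not pass. It was at 10.7 and 11.3 RPKM with vehicle and at 9.71 and 10.8 RPKM with GW4064, with overlapping groups and a log2 change of -0.09 (95% interval -0.32 to 0.13, adjusted p = 0.565 from limma). The GRO-seq ratio was -0.23 in WT and -0.45 in the libraries labelled FXR KO. Kng2, its near copy 29199 bases away on the opposite strand, had an RNA-seq change of -0.01 and GRO-seq ratios of 0.31 and -0.51, so reads shared between the copies make both uncertain.

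Of the anticoagulants, Serpinc1 had the highest change. This gene encodes antithrombin, and it was at 14.2 and 13.6 RPKM with vehicle and at 17.2 and 16.9 RPKM with GW4064, without overlap. The log2 change was 0.29 (limma SE 0.06, adjusted p = 0.0999), past the threshold only with limma-voom among the 17 settings. Its GRO-seq ratio was 0.60 (interval 0.55 to 0.66) in WT and 0.11 (interval 0.01 to 0.21) in the libraries labelled FXR KO. Proc (protein C), Pros1 (protein S, its cofactor) and Serpind1 (heparin cofactor II) had RNA-seq changes of -0.07, -0.13 and -0.02, none of which passed. The Serpind1 row lies wholly inside Pi4ka on the opposite strand, where Pi4ka was at 2.25 RPKM and Serpind1 at 10.4 RPKM with vehicle, so part of its reads may belong to Pi4ka.

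In the plasmin system, Plg, the plasmin precursor, was at 14.2 and 13.4 RPKM with vehicle and at 10.7 and 11.1 RPKM with GW4064, without overlap. The log2 change was -0.34 (adjusted p = 0.0956 from limma), and the GRO-seq ratios were near 0 (-0.07 in WT and -0.02 in the libraries labelled FXR KO). Serpinf2, the inhibitor of plasmin, had a change of 0.02 (adjusted p = 0.876 from limma), with GRO-seq ratios of 0.31 and -0.42.

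Of the 3 other plasma proteins, Apoh, beta-2-glycoprotein I, was at 10.7 and 10.7 RPKM with vehicle and at 7.61 and 8.13 RPKM with GW4064. The values did not overlap, and the log2 change was -0.44 (adjusted p = 0.0581 from limma). Ahsg was at 58.5 and 57.3 RPKM and at 47.8 and 49.8 RPKM (-0.25, adjusted p = 0.136 from limma), and Fetub, fetuin-B, had a change of 0.00. Ahsg overlaps Gm30505 on the opposite strand over 31.9% of its row.

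Genotype differences with vehicle were mostly positive. The log2 ratio of the library labelled FXR KO over WT had a median of 0.25 for complement, 0.17 for coagulation and 0.93 for the 3 other plasma proteins, beside -0.07 for all genes. Ahsg was the only member past 2-fold, with 97.9 RPKM in WT and 211 RPKM in the library labelled FXR KO (1.10, interval 1.06 to 1.15), where 1.68% of all genes were past 2-fold higher. No member was past 2-fold lower, where 1.36% of all genes were. Summed hepatocyte markers were also higher in the libraries labelled FXR KO, at 1160 and 1130 RPKM against 660 and 741 RPKM in WT. Not every marker was: with vehicle, Alb, Apoa1, Apoa2, Tat and Cps1 were higher than in WT. Ttr was similar (64.8 against 63.1 RPKM in WT) and Serpina1c was slightly lower (24.0 against 26.3 RPKM). Cholangiocyte sums were slightly higher in the libraries labelled FXR KO. Blood cell (7.31 and 10.4 against 12.7 and 13.1 RPKM) and stellate cell sums were lower there. Kupffer cell (8.11 and 5.85 against 5.77 and 6.96 RPKM) and endothelial sums were higher with vehicle and lower with GW4064. The part of these cell types in the ratios was not tested. With GW4064, Masp1 and C6 were past 2-fold higher in the library labelled FXR KO, where 2.13% of all genes were, and no member was past 2-fold lower, where 3.66% of all genes were.

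RNA-seq and WT GRO-seq came from different animals and were compared only through their changes. Of 45 members, 34 had the same sign in both (75.6%, beside 69.2% of 9992 genes). Across members Pearson's r was 0.76, and across all genes it was 0.43, a description over genes that share the same libraries. The 3 genes that fell in RNA-seq had WT ratios of -0.66 to -1.43, and C3 had 0.83.

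**Figure D4:**
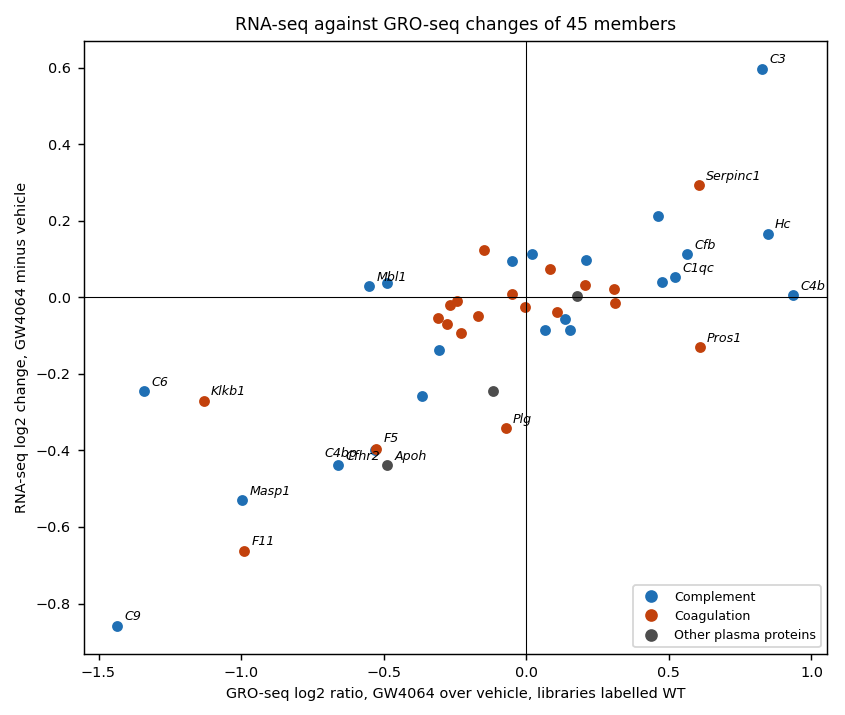
RNA-seq log2 change (vertical axis) against the GRO-seq log2 ratio in WT (horizontal axis) for 45 members, coloured by group. C9 (-1.43 and -0.86) lies at the lower left, C3 (0.83 and 0.60) at the upper right, and C4b at the right edge with an RNA-seq change of 0.01.

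A wider list of 61 complement and coagulation genes outside the 46 gave a comparison. Of these, 60 had a row and 41 passed the filter. None rose, 1 fell and 40 did not pass, with a median log2 change of 0.00, while 13 had an unadjusted p under 0.05 (21.2% of all tested genes) and limma-voom called 5 higher and 1 lower (4.58% and 4.22% of all tested genes). The gene that fell was Mug1, a murinoglobulin of the macroglobulin family of protease inhibitors, at 35.2 and 32.7 RPKM with vehicle and at 16.9 and 18.8 RPKM with GW4064. The change was -0.93 on the log2 scale (limma SE 0.08, adjusted p = 0.0278). Mug1 has the close relative Mug2, so its reads are uncertain.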

How the data were processed

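Reads were mapped by the authors to mm10 with STAR (2.7.3a in the submitters' processing notes) and genes were quantified with HOMER. The deposited values are RPKM, computed by the authors over whole gene rows. Whether counting used strand is not given in the sources used here. All 8 libraries were used, and 0 value columns were left out. Library totals were rebuilt by finding what 1 read is worth in each column, after which 100% of the tested values were whole to within 0.15. Rows held 92.0% to 92.4% of them in RNA-seq.

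RNA-seq rows with a mean of at least 0.5 RPKM were fitted as log2(RPKM + 0.1) with limma 3.58.1 (R 4.3.3, eBayes with trend=TRUE, treatment as the only term) and adjusted by Benjamini-Hochberg over all 11408 genes. Fold changes on this scale understate those of low genes. Nothing states that the 2 libraries of a group differ in more than the mice pooled, so p-values measure the spread between these pools. GRO-seq ratios of single members use rebuilt reads with exact binomial (Clopper-Pearson) intervals. Medians and counts use RPKM + 0.1, and a counted gene needed 20 or more reads in either library compared. Promoter windows are from RefSeq (GRCm38). Python 3.11.15, pandas 2.3.3, scipy 1.17.1 and matplotlib 3.10.9 were used, and fits were tested on simulated data.

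The 46 members, the roles and the wider list were chosen with earlier results of these data known. Values were given for C3, Kng1 and the fibrinogen genes, members past the threshold, the highest and lowest change of each role, the highest and lowest level, members past 2-fold in GRO-seq, and members with overlapping rows or near copies. Other members were named after their values were seen. Nothing in the labels says that replicate numbers pair the samples, and they were not treated as pairs. The deviations of same-numbered libraries had a correlation of -0.02, which alone cannot exclude pairing. Alternatives changed the added value, filter, normalization, eBayes options, threshold and libraries, or used limma-voom. The fit on rows of at least 300 bases was chosen after seeing the data.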

Additional observations from a re-analysis of the deposited data

Results flagged for a closer look

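Pros1, which encodes protein S, the cofactor of activated protein C, went in opposite directions in the genotypes in GRO-seq. It was at 1.54 RPKM with vehicle and at 2.35 RPKM with GW4064 in WT, a log2 ratio of 0.61 (counting interval 0.51 to 0.70). In the libraries labelled FXR KO it was at 3.05 and 1.71 RPKM, a log2 ratio of -0.83 (counting interval -0.97 to -0.69). It was singled out because the ratios lie beyond 1.5-fold in opposite directions. The difference between genotypes was not tested, since there is 1 library per condition. In RNA-seq the 2 vehicle libraries (2.52 and 2.18 RPKM) and the 2 GW4064 libraries (2.00 and 2.27 RPKM) overlapped.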

How the results depend on the processing

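Beside 1 member higher and 3 lower, the counts became 0 and 0 with a filter at 0.1 RPKM, no filter, an adjusted p under 0.01 or any library left out (range 0 to 0 for both), while 11 to 14 members then had an unadjusted p under 0.05. They became 2 and 9 with limma-voom or an adjusted p under 0.1 and 0 and 8 with quantile normalization. Only the lower count moved with a filter at 1 RPKM (5), eBayes with trend=FALSE (0) or robust=TRUE (6), and rows of at least 300 bases (8). Lower calls over all genes also rose with quantile normalization, the 1 RPKM filter and robust=TRUE. The lower member counts rose by a larger factor in each of them, although from only 3. Lower calls over all genes fell with trend=FALSE and the 0.1 RPKM filter, but not to 0 as the lower member counts did. Higher calls over all genes, 243 in the main setting, became 219, 268, 309, 191 and 206 in these settings, in that order. All genes were not counted at an adjusted p under 0.01 or 0.1, so those member counts have no background. Over all genes, 243 higher and 131 lower became 82 and 46 with no filter, 522 and 481 with limma-voom, 424 and 310 with rows of at least 300 bases, and 0 to 32 and 0 to 11 with a library left out, the highest without vehicle replicate 1. With the replicate number as a block, limma called 0 members and 0 of all genes in either direction (2327 at an unadjusted p under 0.05, 13 of them members). Nothing in the labels says that these numbers pair the samples.

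Quantile normalization moved the RNA-seq medians to -0.11 for coagulation, -0.03 for complement and -0.36 for the other plasma proteins, and the complement median ran from -0.05 to 0.06 with a library left out. In GRO-seq, median centring gave WT medians of -0.01 for coagulation and -0.02 for the other plasma proteins, and an added 1 RPKM gave the latter 0.78 for the library labelled FXR KO over WT with vehicle. In the GW4064 ratios, 1.5-fold gave 4 higher and 6 lower in WT and 2 lower in the libraries labelled FXR KO, median centring gave 1 higher in WT, and an added 1 RPKM gave 1 lower in WT. Of the libraries labelled FXR KO over WT, 1.5-fold gave 9 higher and 2 lower with vehicle and 9 higher and 1 lower with GW4064. There, median centring gave 3 higher with vehicle, and an added 1 RPKM gave 0 higher with GW4064. Shares of all genes were counted only at 2-fold in the main setting, so these member counts have no background to be read against.

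Some members that did not pass the test changed sign. With quantile normalization these were C1qc (-0.00), C2 (-0.02), C4b (-0.14), Mbl1 (-0.03), Cfb (-0.03), Fga (-0.02), F12 (-0.11), Serpinf2 (-0.12) and Fetub (-0.05). With each library left out in turn the ranges crossed 0 for C1qc (-0.03 to 0.14), C2 (-0.02 to 0.10), C4b (-0.05 to 0.06), Mbl1 (-0.00 to 0.06), Masp2 (-0.14 to 0.02), Cfd (-0.05 to 1.72), C8b (-0.06 to 0.14), Fga (-0.07 to 0.09), Fgg (-0.09 to 0.01), F7 (-0.08 to 0.06), F12 (-0.02 to 0.08), Kng2 (-0.14 to 0.11), Serpind1 (-0.08 to 0.03), Serpinf2 (-0.01 to 0.05) and Fetub (-0.10 to 0.11). The cause was not tested. Reads of a whole row, introns included, were divided by the bases of its exons, so this is not a density of reads on exons. The median was 0.815 for members beside 0.133 over all genes, and 39.1% of members were above 1 beside 3.61% of all genes. With 2 libraries per group in RNA-seq and 1 per condition in GRO-seq, precision is limited by their number.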
